A study of Callithrix jacchus and Rattus norvegicus and Loxodonta africana with 31 samples.

Results

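The genes described here are 8 transcription factors of the epithelial cells of liver and kidney: FOXA1, FOXA2, FOXA3, ONECUT1, PROX1, CEBPA, PAX2 and PAX8. They were taken by symbol, ignoring case, from expression tables of the common marmoset, the rat and a wallaby, and the symbol match found 17 of 54059 table entries. All 8 genes were found in the rat table, 6 in the wallaby table (not FOXA3 or CEBPA) and 3 in the marmoset table (PROX1, CEBPA and PAX2). Another 2 marmoset entries, FOXA2 and PAX8, carry a placeholder name in the table and were identified by their Ensembl gene IDs in a name table. FOXA1, FOXA3 and ONECUT1 of the marmoset were not analysed here. The rat table places Cebpa, Pax2 and Foxa3 on chromosome 1, Foxa2 and Pax8 on 3, Foxa1 on 6, Onecut1 on 8 and Prox1 on 13, and the marmoset table has FOXA2 on 5, PAX2 on 12, PAX8 on 14 and PROX1 on 19. The genome build is not given in the sources used.

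The study sequenced polyadenylated RNA of normal tissues to measure how Y-linked genes are expressed in mammals, and the same tables list the rest of the genes. Of its 31 samples, 14 came from the marmoset, 12 from the rat, 2 from the wallaby and 3 from elephant fibroblasts, which were not analysed here. The marmoset and rat groups used are kidney, liver, heart and brain, each with 1 male and 1 female column, plus ovary and testis with 1 column each. The wallaby groups are 1 male liver and 1 male testis. The labels give sex and an individual number, with no treatment, age or strain, so sex and animal cannot be told apart. Brain columns fit the labels of both frontal cortex and cerebellum, and the marmoset testis column stands for 3 samples of 2 individuals, so its values are the authors' own.

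FOXA1, FOXA2 and FOXA3 are forkhead proteins known as pioneer factors, because they bind their sites in closed chromatin and open them for other factors; in liver they act early in its formation and later at genes of hepatocyte metabolism. ONECUT1, also called HNF6, is a cut-homeodomain activator of hepatocytes and bile duct cells, PROX1 is a homeodomain factor of hepatoblasts and of lymphatic endothelium, and CEBPA is a leucine zipper factor of mature hepatocytes and fat cells. PAX2 and PAX8 are paired-box factors that act together in the formation of the nephron and the collecting duct, and PAX8 is also known from the thyroid and the female reproductive tract.

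Levels are in FPKM, a read density that is corrected for transcript length and for the size of the library. No counts were used, so the depth is unknown. Median FPKM per column was between 2.06 and 3.58 in the marmoset and between 1.34 and 2.08 in the rat. An exact 0 can be a failed estimate in these tables: in both species the gene for albumin, ALB, has 0 in the male and in the female liver. Zeros are for this reason written as listed at 0, and where both columns of kidney or both of liver are 0 the size of the difference between these tissues is left out. The size of a difference from the mean of 3 tissues is also left out for rat Foxa1 and Onecut1. Other sizes against such a mean are fitted values, and the heart columns in it are listed at 0 for several members. The hepatocyte markers summed to 25181 and 22924 FPKM in male and female marmoset liver and to 65251 and 49677 FPKM in rat liver. FGB of this list was listed at 0 in male marmoset liver and stood at 7193 FPKM in female liver. The male and female marmoset liver sums therefore rest on unlike genes and cannot be compared. The proximal tubule markers summed to 4003 and 1919 FPKM in male and female marmoset kidney, against 3.67 and 18.1 FPKM in liver. In rat kidney they summed to 6246 and 1396 FPKM, against 3.43 and 11.0 FPKM in liver. Lists for podocytes and for bile duct cells were also summed. Podocyte markers summed to 349 and 177 FPKM in male and female marmoset kidney, against 1377 and 205 FPKM in liver, and to 119 and 110 FPKM in rat kidney, against 2.72 and 2.93 FPKM in liver. Cholangiocyte markers summed to 959 and 1258 FPKM in marmoset kidney, against 16.9 and 28.7 FPKM in liver. In rat kidney they summed to 2786 and 899 FPKM, against 41.4 and 31.8 FPKM in liver. Single genes gave most of several sums, which are therefore no measure of these cell types. NPHS1 stood at 1373 and 202 FPKM in male and female marmoset liver, and SPP1 at 839 and 1145 FPKM in marmoset kidney. TFF3 stood at 2077 FPKM in male rat kidney. Both marker lists for cortical and for cerebellar neurons were present in every brain column.

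Tissues were compared with limma on log2(FPKM + 1), with the animal as a block. The threshold was an adjusted p (Benjamini-Hochberg, over all genes tested) under 0.05 together with a log2 difference of 1 or more in either direction. Between kidney and liver, 12.5% of the 15100 marmoset genes tested were higher in kidney and 12.5% were lower, 25.0% in all. Of the 14560 rat genes tested, 12.7% were higher and 13.7% lower, 26.4% in all. Of the members, 2 of 5 in the marmoset passed as higher in kidney and 3 as lower, and in the rat 2 of 8 passed as higher and 6 as lower. Every measured marmoset and rat member passed the filter of at least 1 FPKM in 2 columns. FOXA1, FOXA2, FOXA3, ONECUT1, marmoset CEBPA, marmoset PAX2 and PAX8 of both species would not have done so without their 1 high tissue. Among the 8 columns of the fit, rat Prox1 reached 1 FPKM only in female liver and female heart, so it needed liver as well. The member counts therefore describe the members and support nothing further. With 2 animals per species and the animal as a block, the p-values rest on the spread left after tissue and animal are fitted. This spread is shared by all tissues of a fit, so a tissue listed at 0 in both animals can add little to it. Where such zeros are failed estimates, the p-values can be too small. Among the members this concerns rat Foxa1, Onecut1 and Pax2, FOXA2 of both species and marmoset PAX8.

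**Figure D1:**
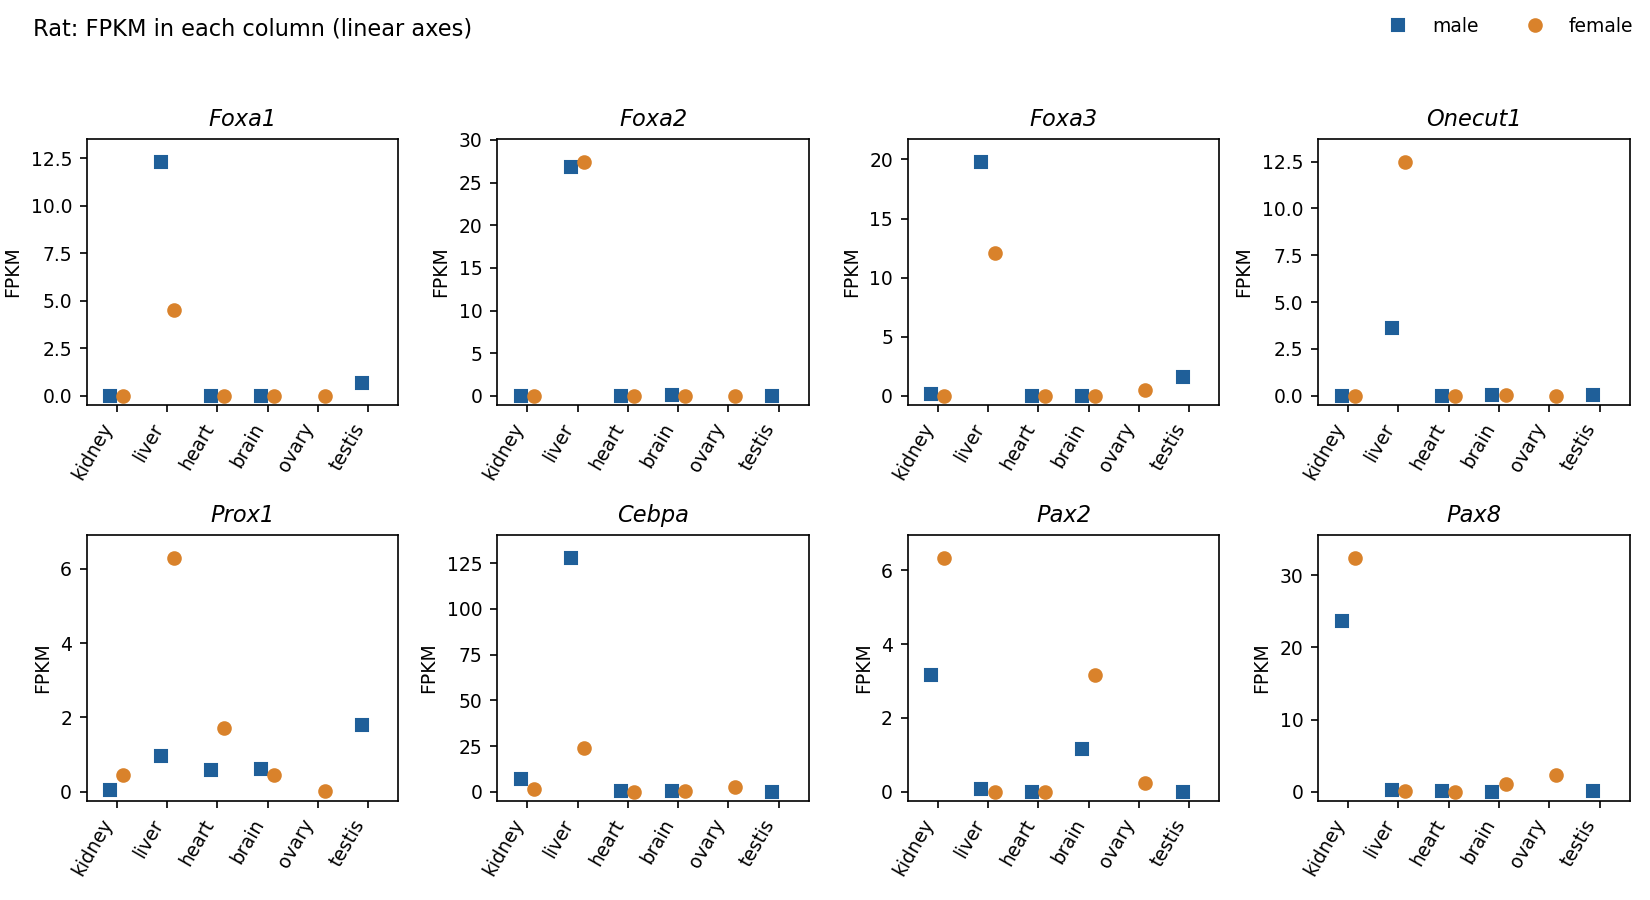
FPKM of the 8 genes in every rat column, with 1 panel a gene, a linear axis from 0 and tissues from left to right; squares are the male animal and circles the female. The 3 Foxa genes, Onecut1 and Cebpa have their highest points in liver, Pax2 and Pax8 in kidney, and Prox1 ranges over several tissues with its highest point at 6.29 FPKM in female liver.

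The FOXA genes that were measured had their highest level in liver, 3 of them in the rat and FOXA2 in the marmoset. Rat Foxa2 was listed at 0 in male kidney and stood at 0.0161 FPKM in female kidney, against 26.8 and 27.4 FPKM in male and female liver. It was listed at 0 in both hearts, at 0.0437 FPKM in male and 0 in female brain. The liver columns stood together, above 85.3% and 87.5% of the genes of their tables, and no other column overlapped with them. The fitted difference between kidney and liver was -4.80 ± 0.16 (log2 ± SE, limma adjusted p = 3.85e-06).

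Marmoset FOXA2 was listed at 0 in male kidney and stood at 0.0562 FPKM in female kidney, against 26.0 and 11.8 FPKM in male and female liver. Both hearts and the female brain were listed at 0, and the male brain stood at 0.00970 FPKM. Liver was again alone, with the male column 2.20 times the female one. Kidney was lower than liver by -4.18 ± 0.31 on the log2 scale (limma adjusted p = 1.91e-04).

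Foxa3, a FOXA gene of adult hepatocytes, stood in the rat at 0.128 and 0.0250 FPKM in male and female kidney, against 19.8 and 12.1 FPKM in liver. Heart was at 0.0227 FPKM in the male and listed at 0 in the female, and brain was at 0.0133 and 0.0192 FPKM. Kidney differed from liver by -3.94 ± 0.22 (limma adjusted p = 3.17e-05). Rat Foxa1 was listed at 0 in all 6 columns of kidney, heart and brain, against 12.3 FPKM in male and 4.51 FPKM in female liver. It passed as lower in kidney (limma adjusted p = 6.67e-04), with a p that rests on the same zeros. Among the livers of the rat the level per length was therefore highest for Foxa2, at 27.1 ± 0.45 FPKM, then Foxa3 at 15.9 ± 5.46 FPKM, then Foxa1 at 8.41 ± 5.51 FPKM (mean ± SD, n = 2), and the ranges of Foxa3 and Foxa1 overlapped.

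Onecut1 was also highest in rat liver. It was listed at 0 in both kidneys, against 3.61 FPKM in male and 12.5 FPKM in female liver. Both hearts were listed at 0 and the brains stood at 0.0542 and 0.0638 FPKM. The female liver was the higher one, unlike for Foxa1 and Foxa3. Kidney passed as lower than liver (limma adjusted p = 0.00167), with a p that rests in part on the zeros of kidney and heart. Its paralog Onecut2, from the list of paralogs, was likewise listed at 0 in both rat kidneys, against 23.7 and 9.24 FPKM in male and female liver, and passed as lower (limma adjusted p = 2.20e-04).

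PROX1 was highest in liver and also measurable in heart and brain. In the marmoset it stood at 0.190 and 0.144 FPKM in male and female kidney, against 15.0 and 21.7 FPKM in liver. Heart followed at 3.92 and 5.95 FPKM, and brain at 2.13 and 2.47 FPKM. The order liver, heart, brain, kidney held with no overlap between neighbouring tissues. Kidney differed from liver by -4.03 ± 0.24 (limma adjusted p = 8.17e-05).

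Rat Prox1 was lower and more scattered. It stood at 0.0510 and 0.440 FPKM in male and female kidney, against 0.965 and 6.29 FPKM in liver. Heart was at 0.599 and 1.71 FPKM and brain at 0.601 and 0.439 FPKM. Each tissue overlapped with its neighbour in the order liver, heart, brain, kidney. Kidney was lower than liver by -1.62 ± 0.44 (limma adjusted p = 0.0301). The call was lost without the replicate block (adjusted p = 0.0837), without the filter on low values (0.0783), and without the male heart (0.0562), male kidney (0.0863) or female kidney column (0.159). Without the male liver the difference was -2.39 (0.00582).

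Lymphatic endothelium is 1 of the cell types known for PROX1. The summed level of its 5 listed markers was 40.7 and 16.8 FPKM in male and female marmoset kidney, against 44.4 and 49.6 FPKM in liver. LYVE1 alone gave 14.9 and 38.4 FPKM of these male and female liver sums. In the rat the summed level was 39.8 and 30.1 FPKM in kidney, against 17.0 and 21.8 FPKM in liver. It was 68.9 FPKM in ovary, where Prox1 stood at 0.0337 FPKM. Male and female rat heart, where Prox1 stood at 0.599 and 1.71 FPKM, had 134 and 69.8 FPKM of the list's CCL21 alone. All 5 were above 0 in each of these columns, and their part in the PROX1 level was not tested. In bulk tissue, fewer cells of a type and less RNA per cell cannot be told apart.

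Rat Cebpa had the highest single value of the 8 rat genes. It stood at 6.80 and 1.34 FPKM in male and female kidney, against 128 and 24.0 FPKM in liver. Heart was at 0.536 FPKM in the male and listed at 0 in the female, and brain was at 0.411 and 0.299 FPKM. The male liver column lay above 94.5% of the table's genes. Liver overlapped with no other tissue, and kidney was second, with no overlap with brain. The difference between kidney and liver was -3.73 ± 0.52 (limma adjusted p = 0.00211). It was -2.97 without the male liver and -4.50 without the female liver.

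The marmoset row named CEBPA gave lower values. Its identity is uncertain, since the table places it on chromosome 11, whereas the RefSeq annotation of the assembly calJac240 has CEBPA on chromosome 22, beside SLC7A10 and PEPD, which the table also lists on chromosome 22. The row stood at 0.810 and 0.361 FPKM in male and female kidney, against 3.27 and 6.75 FPKM in liver. Brain was at 0.278 and 0.132 FPKM and heart at 0.0435 and 0.0774 FPKM. Liver was highest with no overlap, and here the female column was the higher one. Kidney was lower by -1.87 ± 0.31 (limma adjusted p = 0.00510).

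**Figure D2:**
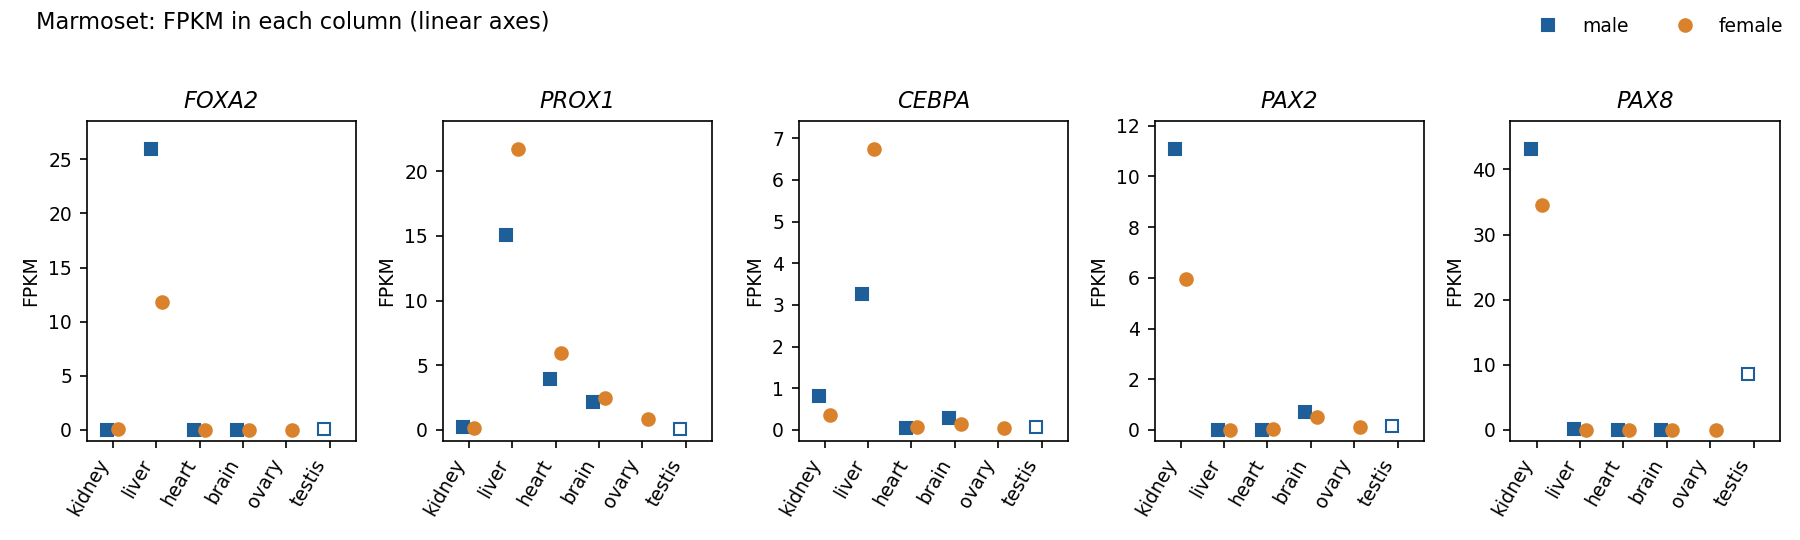
FPKM of the 5 genes found in the marmoset table, with 1 panel a gene and a linear axis from 0; squares are male, circles are female, and the open square is the authors' testis column. FOXA2, PROX1 and the row named CEBPA are highest in liver, PAX2 and PAX8 in kidney, and PAX8 has a second level of 8.63 FPKM in testis.

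The PAX genes had the opposite pattern. Marmoset PAX8 stood at 43.2 and 34.6 FPKM in male and female kidney, against 0.0876 FPKM in male liver and a listed 0 in female liver. Both hearts and the male brain were listed at 0, and the female brain stood at 0.0303 FPKM. The kidney columns lay above 89.2% and 91.5% of the genes and far from every other somatic column. Kidney exceeded liver by 5.25 ± 0.20 (limma adjusted p = 1.47e-05).

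Rat Pax8 stood at 23.6 and 32.4 FPKM in male and female kidney, against 0.276 and 0.164 FPKM in liver. Heart was at 0.0509 FPKM in the male and listed at 0 in the female. The brains differed, with 0.0363 FPKM in the male and 1.02 FPKM in the female. Kidney was alone at the top, and the fitted difference from liver was 4.56 ± 0.30 (limma adjusted p = 6.89e-05).

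PAX2 was lower than PAX8 in each kidney column on this per-length scale. In the marmoset it stood at 11.1 and 5.95 FPKM in male and female kidney, against a listed 0 and 0.0138 FPKM in liver. Heart was listed at 0 in the male and stood at 0.0213 FPKM in the female, and brain was second at 0.702 and 0.516 FPKM, below both kidneys. Kidney exceeded liver by 3.19 ± 0.25 (limma adjusted p = 2.31e-04).

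In the rat, Pax2 stood at 3.15 and 6.33 FPKM in male and female kidney, against 0.0720 FPKM in male liver and a listed 0 in female liver. Both hearts were listed at 0. Brain reached 1.15 FPKM in the male and 3.17 FPKM in the female, so the female brain lay just above the male kidney and the tissues overlapped. The difference between kidney and liver was 2.41 ± 0.30 (limma adjusted p = 0.00128).

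Beside the rat values, the levels of cell type markers differed between the animals, which does not show that the makeup of the tissues differed. The proximal tubule list was 6246 FPKM in the male kidney and 1396 FPKM in the female kidney, and the distal nephron and collecting duct list was 2040 and 2797 FPKM. MIOX gave 3734 and 800 FPKM of the proximal tubule sums, more than any other gene of that list. SLC5A2, the glucose transporter of the early proximal tubule, was at 103 and 3.10 FPKM. CUBN of the same list went the other way, at 18.7 FPKM in male and 79.4 FPKM in female kidney. Cerebellar markers summed to 859 FPKM in male and 159 FPKM in female rat brain, with all 9 at or above 1 FPKM in both. TTR, a transport protein gene of liver and choroid plexus, was at 7.27 FPKM in male and 403 FPKM in female rat brain. The part of these differences in the Pax2 and Pax8 levels was not tested.

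**Figure D3:**
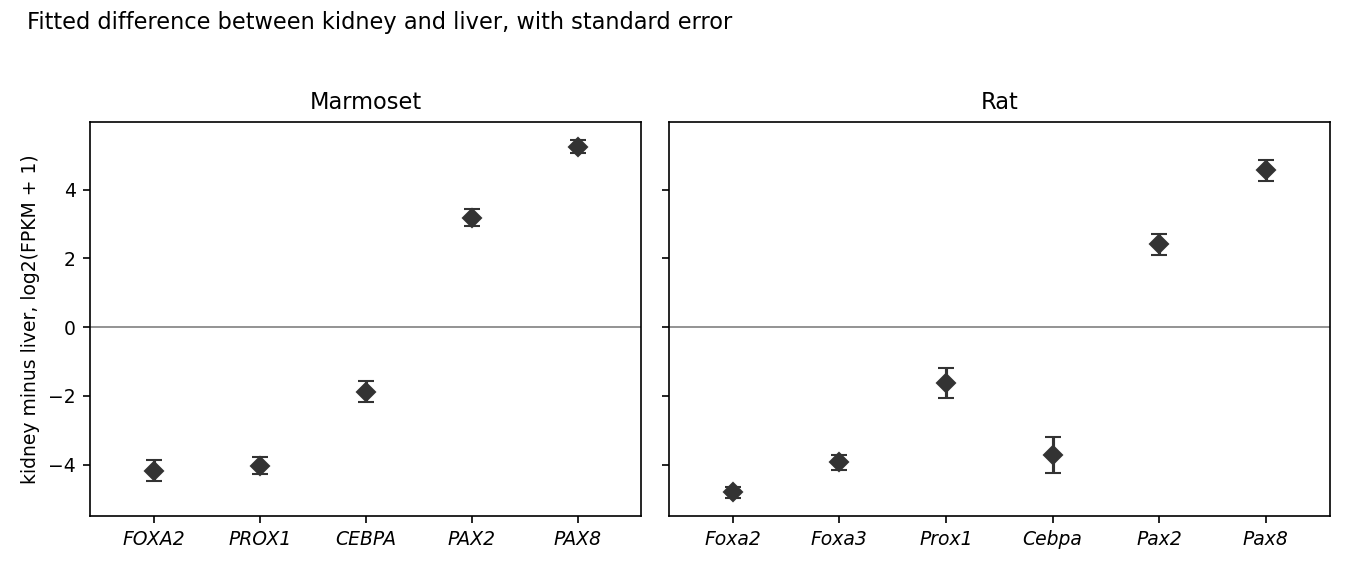
Fitted difference between kidney and liver on the log2(FPKM + 1) scale for the members, marmoset at left and rat at right; diamonds are limma estimates and bars are 1 standard error. FOXA2 and PROX1 lie below 0 and PAX2 and PAX8 above 0 in both species. Rat Cebpa and the marmoset row named CEBPA, whose identity is uncertain, also lie below 0. Rat Foxa1 and Onecut1 are not drawn because both kidneys are listed at 0.

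Each tissue was then set against the mean of the 3 other somatic tissues, a comparison that uses the same columns as the one above. In the marmoset, 21.3% of the genes tested were higher and 16.5% lower in liver, 37.8% in all, and in the rat 19.6% and 19.1%, 38.7% in all. With libraries rescaled by the median ratio, higher genes were 43.9% of those called in marmoset liver, against 56.4% as deposited, and 40.1% in rat liver, against 50.5%. The median difference of all genes then stood at -0.18 in the marmoset, against 0.06 as deposited, and at -0.28 in the rat, against -0.06.

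Liver exceeded that mean for FOXA2 by 4.20, for PROX1 by 2.76 and for the row named CEBPA by 2.19 in the marmoset, all past the test. In the rat it exceeded the mean for Cebpa by 4.88, for Foxa2 by 4.80, and for Foxa3 by 3.99, and Foxa1 and Onecut1 passed as higher as well (limma adjusted p = 1.84e-04 and 4.30e-04). Rat Prox1 passed with 1.27 ± 0.36 (limma adjusted p = 0.0201), and lost the call without the replicate block (0.0561) and without the filter (0.0539); without the male liver the difference was 2.04. PAX2 and PAX8 were lower in liver, by -1.29 and -1.72 in the marmoset and by -1.30 and -1.52 in the rat. The rat calls were lost for Pax2 without the female liver (adjusted p = 0.0602) and for Pax8 with a pseudocount of 0.1 (0.0591).

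Kidney against the mean of heart, liver and brain gave 13.7% of the marmoset genes tested as higher and 9.89% as lower, 23.6% in all, and 11.9% and 11.1% of the rat genes, 23.0% in all. PAX8 was higher by 5.28 in the marmoset and by 4.56 in the rat, and PAX2 by 2.96 and by 1.92. FOXA2 was lower by -1.37 and by -1.60, marmoset PROX1 by -2.62 and rat Foxa3 by -1.26. The marmoset FOXA2 call was lost without the male kidney (limma adjusted p = 0.108). The marmoset row named CEBPA differed by -0.31 and rat Cebpa by -0.10, with no call in either (limma adjusted p = 0.384 and 0.885). Rat Prox1 differed by -0.89, also with no call (0.0990). Rat Prox1 did pass with a pseudocount of 0.1 (0.0238), without the brain columns (0.0296), without the male liver (0.0118) and without the female brain (0.0446). Rat Foxa1 and Onecut1, listed at 0 in both kidneys, passed as lower by a narrow margin (0.0266 and 0.0490). The Onecut1 call was lost without the replicate block (0.0698) and without the mean-variance trend (0.0615). Leaving out any kidney column, the female heart or the female brain lost both calls, as did testing without the filter and rescaling the libraries, and leaving out the male heart or male brain lost that of Onecut1.

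Other transcription factors of the 2 organs were counted from lists that hold none of the 8 genes. Of 17 other liver-enriched factors tested in the marmoset, none was higher in kidney than in liver, 11 were lower and 6 did not pass, with a median difference of -2.59 against -0.03 over all genes. In the rat 1 of 21 was higher, 16 were lower and 4 did not pass, with a median of -2.79 against -0.02. Many genes of these lists passed the filter through 1 tissue, so the counts are a description.

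NR1I3, the constitutive androstane receptor of drug metabolism, stood at 0.0742 and 0.0689 FPKM in male and female marmoset kidney, against 467 and 176 FPKM in liver. Its difference was -8.07 ± 0.37 (limma adjusted p = 2.83e-05). NR0B2, a corepressor in bile acid control, differed by -6.75 ± 0.37, NR5A2 by -3.83 ± 0.23 and CEBPB, the stress-responsive relative of CEBPA, by -3.59 ± 0.34. GATA6 (-2.12, adjusted p = 0.0503) and XBP1 (-1.26, 0.0677) did not pass.

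In the rat the largest difference of the list was that of CREB3L3, a factor of fasting metabolism. It stood at 0.0516 FPKM in male and was listed at 0 in female kidney, against 223 and 170 FPKM in liver, a difference of -7.58 ± 0.20 (limma adjusted p = 1.87e-06). HHEX, a homeodomain factor of the liver bud, differed by -5.80 ± 0.52, ATF5 by -5.25 ± 0.31 and NR1I3 by -4.69 ± 0.58. CEBPD (-0.24, adjusted p = 0.694) did not pass. HNF4G was the 1 gene higher in kidney (1.72 ± 0.28, limma adjusted p = 0.00388) and is named because of its value, as is HNF4A, a nuclear receptor of both organs, which stood at 71.0 and 33.8 FPKM in male and female rat kidney, against 63.9 and 48.0 FPKM in liver (-0.17 ± 0.32, limma adjusted p = 0.736).

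Among other kidney epithelial factors, 13 of 18 tested in the marmoset were higher in kidney, none was lower and 5 did not pass, with a median of 2.29. In the rat 19 of 24 were higher, none was lower and 5 did not pass, with a median of 2.42. FOXI1, a forkhead factor of intercalated cells in the collecting duct, stood at 23.9 and 9.78 FPKM in male and female marmoset kidney, against 0.0496 FPKM in male liver and a listed 0 in female liver. The difference was 4.00 ± 0.34 (limma adjusted p = 3.20e-04). WT1, a zinc finger factor of podocytes, differed by 3.69 ± 0.34, ESRRG by 3.51 ± 0.23 and MECOM by 3.34 ± 0.23. GRHL2 had 0.97 and an adjusted p of 0.00290, short of the size threshold, and ESRRB was listed at 0 in both livers and did not pass (0.0761).

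Rat Foxi1 stood at 22.4 and 17.8 FPKM in male and female kidney, and Pou3f3, a factor of the loop of Henle, at 29.0 and 10.9 FPKM. Both were listed at 0 in each liver and passed as higher in kidney (limma adjusted p = 7.25e-06 and 1.88e-04). Tfcp2l1, a collecting duct factor, differed by 4.06 ± 0.27 (7.93e-05) and Emx1 by 3.62 ± 0.28 (1.51e-04). GRHL2 again missed the size threshold (0.91, 0.00360), and EYA1 was listed at 0 in both rat livers and did not pass (0.0628).

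**Figure D4:**
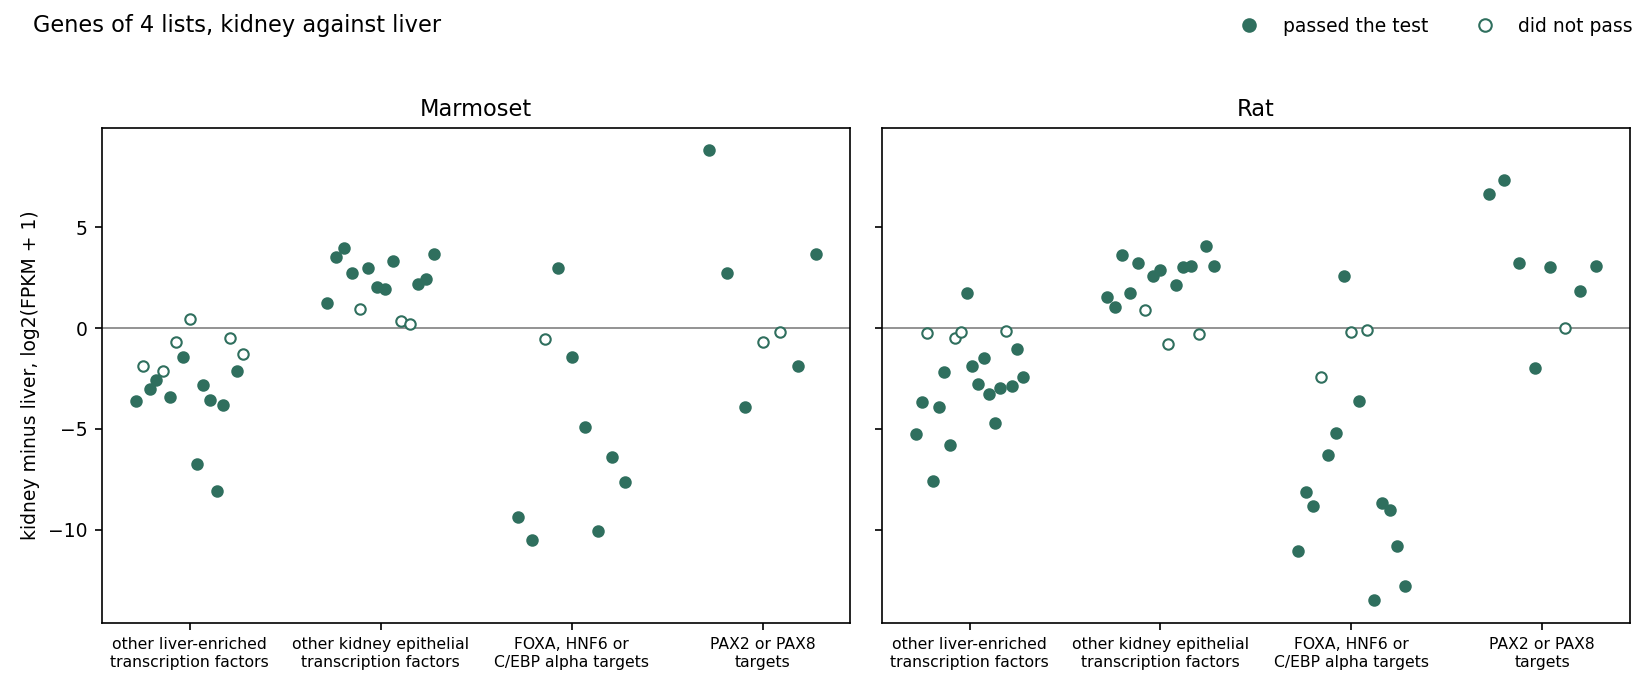
Difference between kidney and liver on the log2(FPKM + 1) scale for each gene of 4 lists, marmoset at left and rat at right; filled points passed the limma test and open points did not, and genes listed at 0 in both columns of a tissue are not drawn. Most liver factors lie below 0 and no kidney factor that passed does.

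Genes known as targets of the members were read the same way. Of 10 known targets of FOXA, HNF6 or C/EBP alpha tested in the marmoset, 1 was higher in kidney, 8 were lower and 1 did not pass, and of 16 in the rat, 1 was higher, 12 were lower and 3 did not pass. The rat list includes Foxa1 itself. CPS1, the first enzyme of the urea cycle, differed by -10.50 ± 0.33 in the marmoset, TAT, a tyrosine aminotransferase, by -10.07 ± 0.44, APOB by -9.38 ± 0.34 and transferrin (TF) by -7.65 ± 0.29. In the rat, SERPINA1 differed by -13.50 ± 0.29, TTR by -12.81 ± 1.42, APOA1 by -11.04 ± 0.34 and TF by -10.81 ± 0.76.

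The 3 genes that did not pass in the rat included Cyp2c11, a male-specific liver enzyme. It stood at 115 FPKM in male kidney and was listed at 0 in female kidney, against 2352 FPKM in male and 0.445 FPKM in female liver (limma adjusted p = 0.480). G6PC, the last enzyme of glucose release, was the marmoset gene that did not pass, at 175 and 353 FPKM in male and female kidney, against 311 and 414 FPKM in liver (-0.53, limma adjusted p = 0.255).

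Known targets of PAX2 or PAX8 gave 4 higher, 2 lower and 2 not passing of 8 tested in the marmoset, with a median of 1.26. In the rat 7 were higher, 1 was lower and 1 did not pass of 9, with a median of 3.10. CDH16, the kidney-specific cadherin, stood at 734 and 379 FPKM in male and female marmoset kidney, against 0.341 and 0.0297 FPKM in liver (8.81 ± 0.30, limma adjusted p = 1.30e-05). In the rat it was at 174 FPKM in each kidney, against a listed 0 and 0.132 FPKM in male and female liver (7.36 ± 0.19, 1.87e-06). AQP2, which lets water through the collecting duct, stood at 267 and 77.4 FPKM in marmoset kidney and was listed at 0 in both livers. In rat kidney it stood at 86.0 and 131 FPKM (6.67 ± 0.22, limma adjusted p = 3.46e-06).

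RET, the receptor that guides the ureteric bud, was lower in marmoset kidney, at 0.445 and 0.357 FPKM in male and female kidney, against 30.6 and 12.7 FPKM in liver (-3.89 ± 0.34, limma adjusted p = 3.68e-04). Rat Ret stood at 0.0251 and 0.0171 FPKM in male and female kidney, against 0.0217 and 0.0334 FPKM in liver, and did not pass (0.994). The marmoset gene TSHR, the thyrotropin receptor, was lower in kidney by -1.86 and rat Tshr was higher by 1.84. Rat Gdnf, the ligand of RET, was lower in kidney by -1.97.

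Paralogs of the members were read beside the 25.0% of marmoset and 26.4% of rat genes called in either direction. In the marmoset 9 of 15 were measured, 5 were tested and CEBPB alone passed, as lower in kidney. In the rat 14 were measured, 6 were tested and Onecut2 and Cebpb passed, both lower. Rat Cebpb stood at 26.1 and 0.932 FPKM in male and female kidney, against 386 and 21.2 FPKM in liver (-3.68 ± 0.81, limma adjusted p = 0.0141). Both genes are also among the liver-enriched factors counted above.

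In gonads there was 1 column each, so the values carry no error. In the marmoset and rat gonads the highest value of a member was that of marmoset PAX8 in testis, at 8.63 FPKM, above 69.1% of the genes of that column and listed at 0 in ovary. PAX2 stood at 0.144 FPKM in that testis and 0.107 FPKM in ovary. Beside PAX8, the testis column had 80.5 FPKM of the epithelial adhesion gene EPCAM, 24.4 FPKM of AQP2 and 7.76 FPKM of CUBN, but 0.106 FPKM of UMOD and 0.0432 FPKM of SLC34A1, which define the nephron. Of the 10 measured markers of epididymis and efferent duct, 2 reached 1 FPKM, WFDC2 at 18.3 and LCN6 at 2.88 FPKM. Of 8 listed germ cell markers 3 were measured in the marmoset, and in testis DDX4 stood at 29.8, TNP1 at 0.169 and ACR at 0.0544 FPKM. TNP1 and ACR, markers of late germ cells, were thus near 0. The other listed markers were not measured, so the share of late germ cells cannot be read from these values. The part of these cells in the PAX8 level was not tested.

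The rat gonads differed from this. Pax8 stood at 0.0734 FPKM in testis and at 2.32 FPKM in ovary, and Cebpa at 0.102 FPKM in testis and 2.54 FPKM in ovary. The ovary column held all 6 measured markers of oviduct and ovarian surface epithelium at 1 FPKM or more, 60.6 FPKM in sum, against 10.3 FPKM in testis. OVGP1 and FOXJ1 of that list were not measured. EPCAM, KRT7, WFDC2 and KRT18 were higher in kidney or liver than in ovary, EPCAM at 177 FPKM in male kidney and 7.37 FPKM in ovary. MSLN and UPK3B were highest in ovary. The part of these markers' cells in the Pax8 level was not tested. In rat testis the highest members were Prox1 at 1.80 and Foxa3 at 1.60 FPKM, then Foxa1 at 0.696 FPKM, the 1 column outside liver where Foxa1 was above 0. Rat testis had all 8 germ cell markers at 1 FPKM or more, 13356 FPKM in sum.

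In the wallaby, liver was set against testis with 1 library each, so there is no test, and a gene was counted where the log2(FPKM + 1) difference was at least 2 with at least 5 FPKM in the higher tissue. By this rule 36.2% of 8915 genes were higher in liver and 16.0% were higher in testis. FOXA2 stood at 68.5 FPKM in liver, against 0.0131 FPKM in testis, a difference of 6.10. FOXA1 stood at 17.2 FPKM in liver, against 0.528 FPKM in testis, a difference of 3.58. Both were past the fold.

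ONECUT1 was not past it, at 10.5 FPKM in liver and 3.73 FPKM in testis, a difference of 1.29. PROX1 was also short of it, at 34.3 FPKM in liver and 18.0 FPKM in testis, a difference of 0.89. PAX2 and PAX8 were listed at 0 in liver and stood at 0.0125 and 0.474 FPKM in testis. With no kidney values analysed here, the kidney pattern of the PAX genes could not be read in this animal.

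All 19 measured other liver-enriched factors were higher in wallaby liver, led by CREB3L3 at 290 FPKM in liver and 0.0142 FPKM in testis, then NR0B2, CEBPB and HHEX with differences of 6.71, 6.30 and 6.29. Of 17 kidney epithelial factors, 2 were higher in liver, SALL1 at 107 and 0.0222 FPKM in liver and testis and TFCP2L1 at 15.5 and 0.0255 FPKM. Of 13 known targets of FOXA, HNF6 or C/EBP alpha, 12 were higher in liver, with SERPINA1, APOA1, TAT and APOB at differences of 12.02, 11.64, 9.75 and 9.38, and FOXA1 itself among the 12. Of 10 known PAX targets, CDH16 alone was past the fold, at 0.225 FPKM in liver and 11.4 FPKM in testis.

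**Figure D5:**
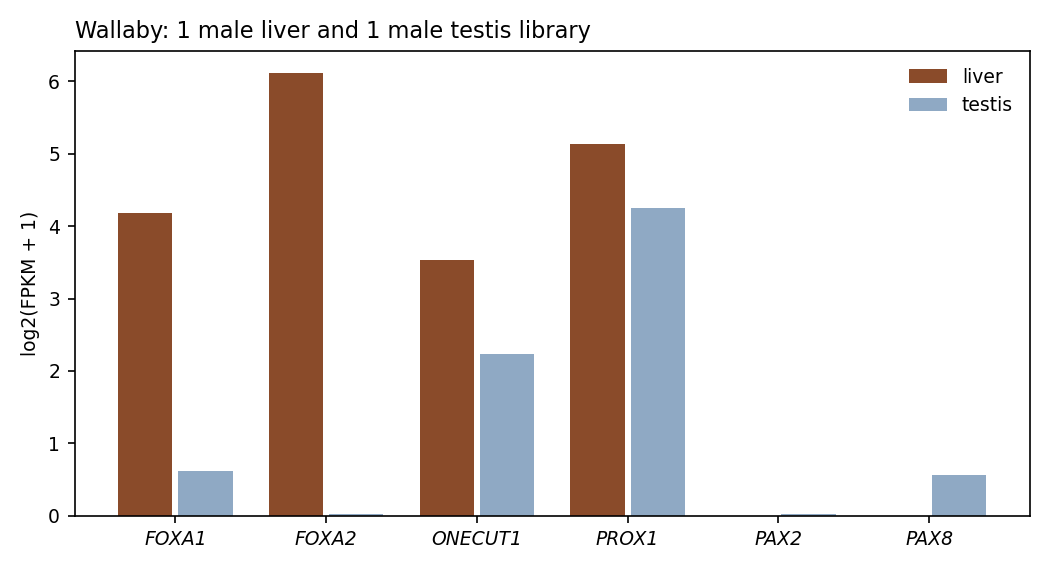
Level of the 6 genes found in the wallaby table as log2(FPKM + 1), with liver bars left of testis bars, 1 male library each and no error. FOXA2 and FOXA1 show the widest gaps, with 68.5 and 17.2 FPKM in liver, while PROX1 has 34.3 FPKM in liver beside 18.0 FPKM in testis.

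The 2 animals of a species differed in the level of single members. Each comparison is of 1 male with 1 female column and has no test. Rat Cebpa was 5.32 times as high in the male as in the female liver and 5.08 times in kidney, while 1.91% of rat genes were higher in male liver by 2 or more on the log2 scale, where Cebpa differed by 2.36. Rat Onecut1 in male liver was 0.289 times, and Prox1 0.153 times, the female level. In marmoset liver the row named CEBPA was 0.484 times, PROX1 0.692 times and FOXA2 2.20 times the female level. Rat Foxa2 was nearly the same in both livers, at 0.977 times.

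The members were also set against each other across all single columns. Pearson correlations on log2(FPKM + 1) were taken over 10 rat columns and 9 marmoset columns, leaving out the authors' testis value. The columns share animals and a table, and the genes are near 0 in most of them, so each value is a description with no p. Rat Foxa1 and Foxa3 had r = 0.985, Foxa2 and Foxa3 0.961, Foxa2 and Onecut1 0.960, and Foxa2 and Cebpa 0.889. Prox1 was less like the other liver members, with 0.754 for Onecut1, 0.628 for Foxa2, 0.602 for Foxa3, 0.539 for Foxa1 and 0.249 for Cebpa. Pax2 and Pax8 had 0.812 in the rat and 0.971 in the marmoset.

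The genes most like each member were listed by the same correlation. For rat Foxa2 they included Cd5l and the clotting factor gene F7, both with r of 1.00 at 2 decimals. For Foxa3 they were Pipox, Cyp4f39 and C2cd2 (0.996, 0.994 and 0.991), for Foxa1 Krt79, Chst13 and Afp (0.995, 0.992 and 0.990), and for Onecut1 Gm11437, Fabp2 and Sult2a6 (0.997, 0.995 and 0.993). For marmoset FOXA2 they were RNF186, CT55 and an entry named CP1A2_CALJA, and for the row named CEBPA they were VNN1, CYP8B1, a bile acid enzyme, and ABCC11 (0.993, 0.991 and 0.989).

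For rat Pax8 the most alike were Cldn4, a tight junction claudin, Ildr1 and Tmc4 (0.995, 0.992 and 0.989), and for Pax2 Ptpro, a podocyte phosphatase, Mal and Slc15a2, a peptide transporter (0.983, 0.979 and 0.977). Marmoset PAX8 was close to TMEM213 and TMEM174. Marmoset PAX2 was closest to SLC22A2, SLC9A3 and RHCG (0.996, 0.996 and 0.991), which transport organic cations, sodium and ammonium in the nephron. For rat Prox1 the values were lower, with Ccz1, Fbxo3 and Bccip at 0.883, 0.871 and 0.869. In the marmoset PROX1 was closest to RAD23B, AGXT2L1 and UGP2 (0.974, 0.970 and 0.965), and rat Cebpa to Ppp1r15b, Fzd8 and Hs3st3b1 (0.979, 0.979 and 0.978).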

How the data were processed

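Per the labels' protocols, polyadenylated RNA was sequenced, and the marmoset libraries were strand-specific. The submitters' processing notes name TopHat 1.4.0 and Cufflinks 2.0.0. No source used here gives the genome builds, the annotation or the handling of reads shared by paralogs. The authors deposited FPKM in 1 table per species. Columns were matched to samples by tissue and sex, and 8 wallaby columns, all at 0, were not used. Where a table gave no symbol, the Ensembl ID was looked up in a name table, which named 5414 of 19681 marmoset genes.

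Tissues were compared within a table on log2(FPKM + 1) in R 4.3.3 by limma 3.58.1, whose variance prior followed the mean level. A gene was tested if 2 or more of the 8 columns had 1 FPKM or more. Such a difference understates that of genes near 1 FPKM. The labels give the tissues of a sex the same individual number, and male minus female differences correlated between tissues (r of 0.143 to 0.716), so the animal was a block. The fit was tested on simulated data, with sets of 100 genes raised in kidney and no other tissue difference. For a log2 change of 2, 60 were recovered in the marmoset and 61 in the rat. With a change of 4 these were 92 and 96. Far fewer genes differed in the simulation than passed in the data, which made the adjusted p stricter. These numbers are therefore no measure of recovery in the data, where a gene that did not pass can still differ. Depth is unknown, so no counting interval is given. Python 3.11.15 and pandas 2.3.3 did the rest.

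Alternatives were other pseudocounts, no filter, no block, no trend, rescaled libraries, no brain columns and leaving out each column. From each list, up to 4 genes that passed with the largest difference and up to 2 that did not with the smallest p were named; others are named because of their values, and some genes that these rules name are not reported here. The members and lists were chosen with earlier results of these data known.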

Additional observations from a re-analysis of the deposited data

Results flagged for a closer look

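TSHR, the thyrotropin receptor, which is on the list of known PAX2 or PAX8 targets, moved in opposite directions in the 2 species, in both animals of each. The marmoset difference between kidney and liver was -1.86 on the log2(FPKM + 1) scale, with 0.344 and 0.326 FPKM in male and female kidney, against 3.66 and 4.05 FPKM in liver. The rat difference was 1.84, with 2.56 and 2.69 FPKM in kidney, against a listed 0 and 0.0221 FPKM in liver. The difference between the species was not tested, since the tables were normalized separately.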

How the results depend on the processing

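Across the alternatives, 236 of the single-member values kept direction and call when a column was left out, 5 reversed, 15 lost and 2 gained a call. The reversed values all belong to CEBPA in kidney against the mean of heart, liver and brain, which passed in no setting. In the marmoset it was 0.086 with a pseudocount of 0.1, and -0.64 to 0.020 with 1 column left out, the highest without the female kidney. In the rat it was 0.77 and 0.17 with pseudocounts of 0.1 and 0.5, and -0.45 to 0.25 with 1 column left out, above 0 without the male liver, female brain, female heart or female kidney. A pseudocount of 0.1 widened most differences: marmoset PAX8 between kidney and liver was then 8.14 and rat Foxa2 was -7.98.

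Without the replicate block, 2356 marmoset genes passed between kidney and liver, against 3775 with it; the members that lost a call were rat Prox1 (adjusted p = 0.0837 against liver and 0.0561 in liver against the mean) and rat Onecut1 in kidney against the mean (0.0698). Leaving out each column gave 2027 to 3843 marmoset genes between kidney and liver, with 2027 and 2118 without the male and female kidney. Kidney against the mean gave 2021 to 3626, with 2021 and 2272 without the male and female kidney, against 3562 with all columns. The cause was not tested.

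With 2 columns a tissue, a difference of 1 animal from the other cannot be told from a difference of sex. Depth is unknown, and levels near 0 carry no counting error here. Values listed at 0 can be failed estimates, and the identity of the marmoset CEBPA row is uncertain.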

Other observations

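Of the relatives of CEBPA, CEBPB and CEBPD differed between the animals in a like direction in both species. CEBPB was higher in the male than in the female column in each of kidney, liver, heart and brain. In marmoset kidney it stood at 25.6 FPKM in the male and 3.75 FPKM in the female, and in liver at 252 and 71.4 FPKM. Rat Cebpb stood at 26.1 and 0.932 FPKM in male and female kidney and at 386 and 21.2 FPKM in liver. CEBPD was also higher in each male column, at 368 and 19.6 FPKM in male and female marmoset liver and at 12.1 and 3.49 FPKM in rat liver. CEBPZ, a more distant relative, was lower in each marmoset male column, at 0.473 to 0.893 times the female level, and in the rat it was at 0.727 to 1.22 times, above the female level in brain. Rat Cebpg was at 0.963 to 1.30 times the female level over the 4 tissues. In the marmoset 6.27% of genes were higher in male liver by 2 or more on the log2 scale and 0.704% were higher in the female. With 1 animal of each sex no test was made, and sex and animal cannot be told apart.

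Some liver-enriched factors were also kidney factors against the mean of the 3 other somatic tissues. HNF4A and HNF4G were higher in kidney by 2.72 and 2.53 in the marmoset and by 3.67 and 2.54 in the rat, each past the limma test, and rat NR1H4, the bile acid receptor, by 2.27. In the other direction, SALL1, counted as a kidney factor, was higher in liver against the mean by 2.04 in the marmoset and 2.12 in the rat. The highest gene of the marmoset testis column was SCGB1D1, a secretoglobin, at 7143 FPKM.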
